A study of Mus musculus with 12 samples.

Results

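The tumor necrosis factor (TNF) ligand and receptor superfamily and its intracellular signaling genes were examined in mouse bone marrow-derived macrophages (BMDMs) exposed to DKK1, IL-13 or both. Members were taken from the deposited count table by gene name: every gene named Tnfsf or Tnfrsf with a number, Traf1 to Traf7, and Tnf, Fas, Ltb, Ltbr, Tnfaip2, Tnfaip3, Tnfaip8, Tradd, Ripk1, Birc2 and Birc3. This rule found 45 of the 17723 genes in the table, namely 11 ligands, 19 receptors, 7 TRAF adaptors, 7 other signaling genes and 1 antisense transcript (Tnfsf13os). Of these, 43 passed the filter on low counts and were tested. Tnfsf8 and Tnfrsf17, with 67 and 70 counts over all 12 libraries, did not.

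Bulk RNA seq was performed on wild-type C57BL/6 BMDMs (C57Bl/6J mice in the methods) in 4 groups of 3 libraries. The groups were IL-13 (2 ng/ml) together with DKK1 (30 ng/ml), DKK1 alone (30 ng/ml), IL-13 alone (2 ng/ml) and untreated cells, all harvested at 24 hours. All cells had been differentiated from the bone marrow of young adult mice in macrophage colony-stimulating factor (M-CSF), and recombinant mouse DKK1 and murine IL-13 were used. The sources do not say whether the 3 libraries of a group came from separate mice or cultures, so p-values measure the spread between these libraries, which may be technical.

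DKK1 is a secreted antagonist of Wnt signaling, and IL-13 is a type 2 cytokine that acts on macrophages through the IL-4 receptor α chain and STAT6. TNF superfamily ligands are mostly trimeric membrane proteins that can be shed, and they signal by clustering their receptors. Receptors without a death domain recruit TRAF adaptors, which bring in the ubiquitin ligases cIAP1 (Birc2) and cIAP2 (Birc3) and lead to NF-κB and MAP kinase activation, whereas death receptors recruit adaptors such as TRADD and can also start cell death. Macrophages are a major source of TNF and express both of its receptors, TNFR1 (Tnfrsf1a) and TNFR2 (Tnfrsf1b).

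The 12 libraries held 32224036 to 40917086 counts. Levels are given as counts per 1000000 counts of a library (CPM) after TMM scaling, and a gene was called higher or lower in a comparison when the adjusted p of edgeR's quasi-likelihood test was under 0.05 and the fitted log2 fold change exceeded 1 in size. All 8 macrophage markers listed were present, and their summed level was 33300 to 34300 CPM with IL-13+DKK1, 44100 to 44700 with DKK1, 19000 to 20000 with IL-13 and 27100 to 27800 in untreated cells. The macrophage sums were mostly Lyz2, at 23200 CPM with IL-13+DKK1, 32200 with DKK1, 11200 with IL-13 and 17000 in untreated cells. Cd68 (727 CPM with DKK1, 979 CPM in untreated cells) and Mertk (270 and 359 CPM) had lower mean levels with DKK1. The other macrophage markers had higher mean levels with DKK1 than in untreated cells. None of the 7 T and NK cell markers was in the table. Neutrophil markers (7 of 7 present) summed to 522 to 638 CPM with IL-13+DKK1, 359 to 374 with DKK1, 323 to 490 with IL-13 and 505 to 561 in untreated cells. Stromal markers (5 of 5 present) summed to 64.7 to 94.3 CPM with IL-13+DKK1, 58.7 to 93.8 with DKK1, 62.8 to 128 with IL-13 and 83.2 to 173 in untreated cells. The part of these marker differences in the results was not tested. In bulk RNA, fewer cells of a type and less RNA per cell cannot be told apart.

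The family was unevenly expressed. Per kilobase of annotated exon, Tnfrsf1b stood highest of the members in untreated cells at 144 CPM per kb, followed by Tnfaip2 (88.1), Tnfrsf1a (70.5) and the lymphotoxin β receptor gene Ltbr (36.2). Tnf and Tnfsf12, which encodes TWEAK, were the ligands with the highest level per length in untreated cells, at 12.8 and 12.9 CPM per kb. Tnfsf4, which encodes OX40 ligand, had the lowest level of all members in untreated cells at 0.05 CPM per kb. With DKK1 the order of the ligands changed, since Tnfsf14 reached 29.8 CPM per kb, against 0.663 CPM per kb in untreated cells.

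**Figure D1:**
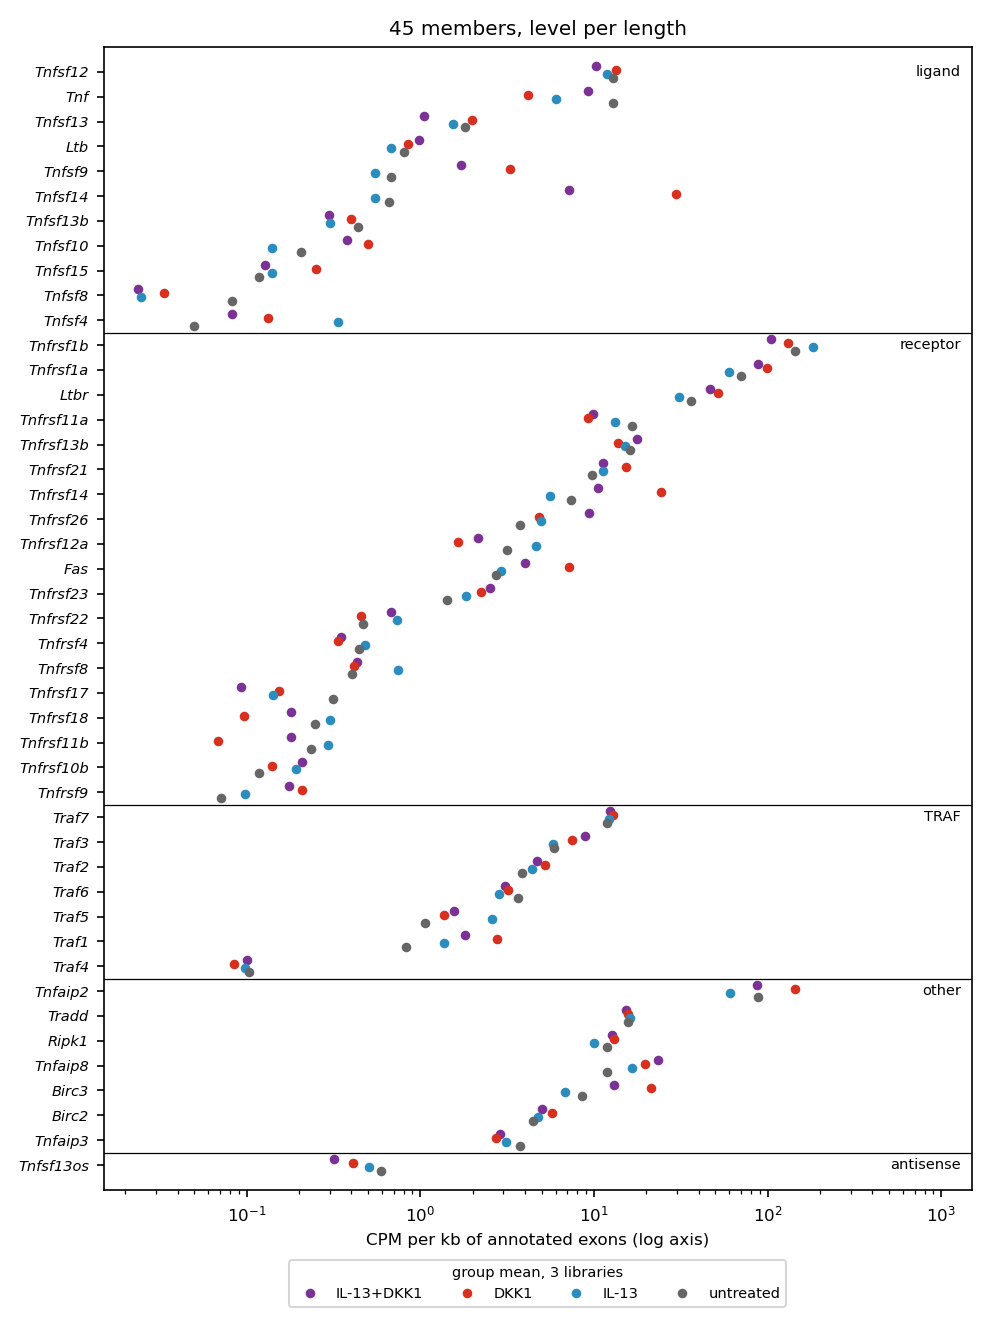
Group means (3 libraries each) of the 45 members in CPM per kb of annotated exons, on a log axis, ordered within each role by the level in untreated cells. The receptors Tnfrsf1b, Tnfrsf1a and Ltbr and the signaling gene Tnfaip2 sit at the top in every group, and Tnfsf14 shows the widest separation between the DKK1 point (29.8) and the untreated point (0.663).

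DKK1 alone changed 10 of the 43 tested members relative to untreated cells, where 11.6% of all 16306 genes tested were called. Higher calls were made for 8 members (Tnfsf14, Tnfsf9, Tnfsf10, Tnfsf15, Tnfrsf14, Fas, Traf1 and Birc3), where 5.18% of all genes were called higher. Lower calls were made for 2 members (Tnf and Tnfrsf11b), where 6.46% of all genes tested were called lower. The higher calls were therefore a larger share of the members than of all genes, while the lower calls were not. At the adjusted p alone, 21 members were higher and 8 lower, where 22.6% and 23.0% of all genes were. The median log2 fold change was 0.24 over the 43 members and -0.04 over all genes tested.

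Among the ligands, Tnfsf14 stood out. It encodes LIGHT, which binds HVEM (Tnfrsf14) and the lymphotoxin β receptor. Tnfsf14 was at 61.2, 49.0 and 58.6 CPM in the DKK1 libraries, against 1.28, 1.19 and 1.29 CPM in the untreated libraries. All 3 DKK1 libraries lay far above all untreated ones, with no overlap. The log2 fold change was 5.48 ± 0.13 (SE), or 44.7-fold (edgeR, adjusted p = 6.12e-19). It was the largest change of any member in this comparison, and it lay between 5.43 and 5.59 when each library was left out in turn.

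A further 3 ligands rose with DKK1 from low levels. Tnfsf9, which encodes 4-1BB ligand, was at 4.35, 3.98 and 4.77 CPM with DKK1, against 1.07, 0.920 and 0.697 CPM in untreated cells. The groups did not overlap, and the log2 fold change was 2.28 ± 0.24 (edgeR, adjusted p = 4.52e-08). Tnfsf10 encodes TRAIL, a ligand of the death receptor encoded by Tnfrsf10b, and was at 3.51, 2.04 and 2.55 CPM with DKK1, against 1.498, 1.31 and 0.509 CPM in untreated cells. Its log2 fold change was 1.29 ± 0.31 (edgeR, adjusted p = 0.00153) with no overlap, but without untreated replicate 3, the lowest library, it was 0.94 and no longer called. Tnfsf15, which encodes the death receptor 3 ligand TL1A, was at 1.33, 1.30 and 1.83 CPM with DKK1, against 0.695, 0.594 and 0.804 CPM in untreated cells. This was a log2 fold change of 1.08 ± 0.33 (edgeR, adjusted p = 0.0102). The Tnfsf15 call was lost without untreated replicate 2 (0.98), without DKK1 replicate 3 (0.92) and with scaling by library size alone (0.96), so it sat at the threshold. Every Tnfsf15 count, from 20 to 56 per library over the study, was even, and whether these are independent reads was not tested.

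Tnf itself went the other way. It was at 5.92, 6.98 and 7.51 CPM in the DKK1 libraries, against 21.6, 20.8 and 20.4 CPM in the untreated libraries. The groups were fully separated, and the log2 fold change was -1.62 ± 0.10, a 3.08-fold lower level (edgeR, adjusted p = 4.80e-12). Ltb, its neighbor on chromosome 17, which encodes lymphotoxin β, was at 1.32 ± 0.275 CPM with DKK1 and 1.25 ± 0.428 CPM in untreated cells (SD, n = 3 each), and the ranges overlapped. Tnfsf12, Tnfsf13 (APRIL) and Tnfsf13b (BAFF) had log2 fold changes of 0.05, 0.13 and -0.14 with DKK1 and were not called, and their ranges overlapped those of untreated cells.

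Among the receptors, the LIGHT receptor gene Tnfrsf14 and the death receptor gene Fas rose with DKK1. Tnfrsf14 was at 66.3, 67.8 and 64.0 CPM with DKK1, against 22.1, 18.4 and 19.6 CPM in untreated cells. Each DKK1 library was above every untreated library, and the log2 fold change was 1.72 ± 0.07, or 3.29-fold (edgeR, adjusted p = 4.94e-15). Ltbr, the gene of the other LIGHT receptor, was at 123 ± 3.37 CPM with DKK1 and 86.6 ± 3.75 CPM in untreated cells (SD, n = 3 each). The change of 0.51 ± 0.04 on the log2 scale passed the adjusted p (7.02e-10, edgeR) but not the fold threshold. Fas, whose product triggers apoptosis when bound by Fas ligand, was at 19.4, 16.1 and 14.5 CPM with DKK1, against 6.26, 6.92 and 5.92 CPM in untreated cells. The 2 groups did not overlap and the log2 fold change was 1.39 ± 0.13 (edgeR, adjusted p = 1.04e-08).

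Tnfrsf11b, which encodes osteoprotegerin, a secreted decoy for RANK ligand, was the receptor gene called lower with DKK1, at very low levels. It was at 0.242, 0.247 and 0.131 CPM with DKK1, against 0.856, 0.891 and 0.375 CPM in untreated cells, from 4 to 62 counts per library over the whole study, and these 2 groups did not overlap. The counts were 8, 8 and 4 with DKK1, against 32, 30 and 14 in untreated cells. Every Tnfrsf11b count in the study was even, and whether low counts are independent reads was not tested. The log2 fold change was -1.75 ± 0.66 (edgeR, adjusted p = 0.0361). The call was lost when any of the 3 DKK1 libraries or untreated replicate 1 or 2 was left out, where the log2 fold change ranged between -1.87 and -1.50. Tnfrsf11a, which encodes RANK and is abundant in macrophages that can become osteoclasts, was at 73.1, 68.5 and 66.9 CPM with DKK1, against 130.3, 124 and 123 CPM in untreated cells. All DKK1 libraries lay below all untreated ones, and the log2 fold change of -0.86 ± 0.04 (edgeR, adjusted p = 2.50e-13) was short of the fold threshold. Osteoclast markers (4 of 6 present, Calcr and Oscar not in the table) summed to 72.1 to 78.3 CPM with IL-13+DKK1, 98.2 to 104 with DKK1, 81.3 to 102 with IL-13 and 20.5 to 26.9 in untreated cells. These sums were mostly Acp5, at 65.1 CPM with IL-13+DKK1, 95.3 with DKK1, 51.4 with IL-13 and 15.2 in untreated cells. Ctsk was at 5.06 CPM with DKK1 and 3.75 CPM in untreated cells, whereas the fusion genes Dcstamp (1.88 CPM with DKK1, 4.67 CPM in untreated cells) and Ocstamp (0.0712 CPM with DKK1, 1.03 CPM in untreated cells) had lower mean levels with DKK1. Of the stromal markers, Col1a1 (32.2 CPM with DKK1, 57.1 CPM in untreated cells), Col1a2 (38.4 and 65.1) and Col3a1 (4.34 and 6.23) had lower mean levels with DKK1. Pdgfrb (2.28 and 1.19 CPM) and Dcn (0.542 and 0.503 CPM) had higher ones. The part of these osteoclast and stromal marker differences in the Tnfrsf11a and Tnfrsf11b values was not tested.

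Of the 7 TRAF genes, Traf1 was called with DKK1. TRAF1 has no RING domain and forms complexes with TRAF2 and cIAPs. Traf1 was at 27.8, 21.8 and 23.6 CPM with DKK1, against 8.51, 6.65 and 6.94 CPM in untreated cells, with no overlap. The log2 fold change was 1.73 ± 0.11, or 3.31-fold (edgeR, adjusted p = 1.14e-11). Traf2, Traf3 and Traf5 had log2 fold changes of 0.44, 0.35 and 0.37 with DKK1, and Traf6 and Traf7 had -0.19 and 0.11. Each of these was past the adjusted p alone, where 22.6% of all genes were higher and 23.0% lower. Traf4 had -0.28 and did not pass the adjusted p (0.677, edgeR).

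Birc3, the cIAP2 gene, was at 186, 188 and 179 CPM with DKK1, against 76.6, 73.9 and 70.6 CPM in untreated cells. The groups did not overlap, with a log2 fold change of 1.32 ± 0.04 (edgeR, adjusted p = 2.23e-16). Birc2, which lies next to Birc3 on chromosome 9 and encodes cIAP1, was at 37.4 ± 0.664 CPM with DKK1 and 29.1 ± 0.939 CPM in untreated cells (SD, n = 3 each), a log2 fold change of 0.37. Among genes named for induction by TNF, Tnfaip2 and Tnfaip8 had log2 fold changes of 0.70 and 0.74 with DKK1, and Tnfaip3, which encodes the ubiquitin-editing enzyme A20, had -0.47. These 3 passed the adjusted p but not the fold threshold. Tradd was at 36.2 ± 3.01 CPM with DKK1 and 36.0 ± 0.821 CPM in untreated cells (SD, n = 3 each).

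**Figure D2:**
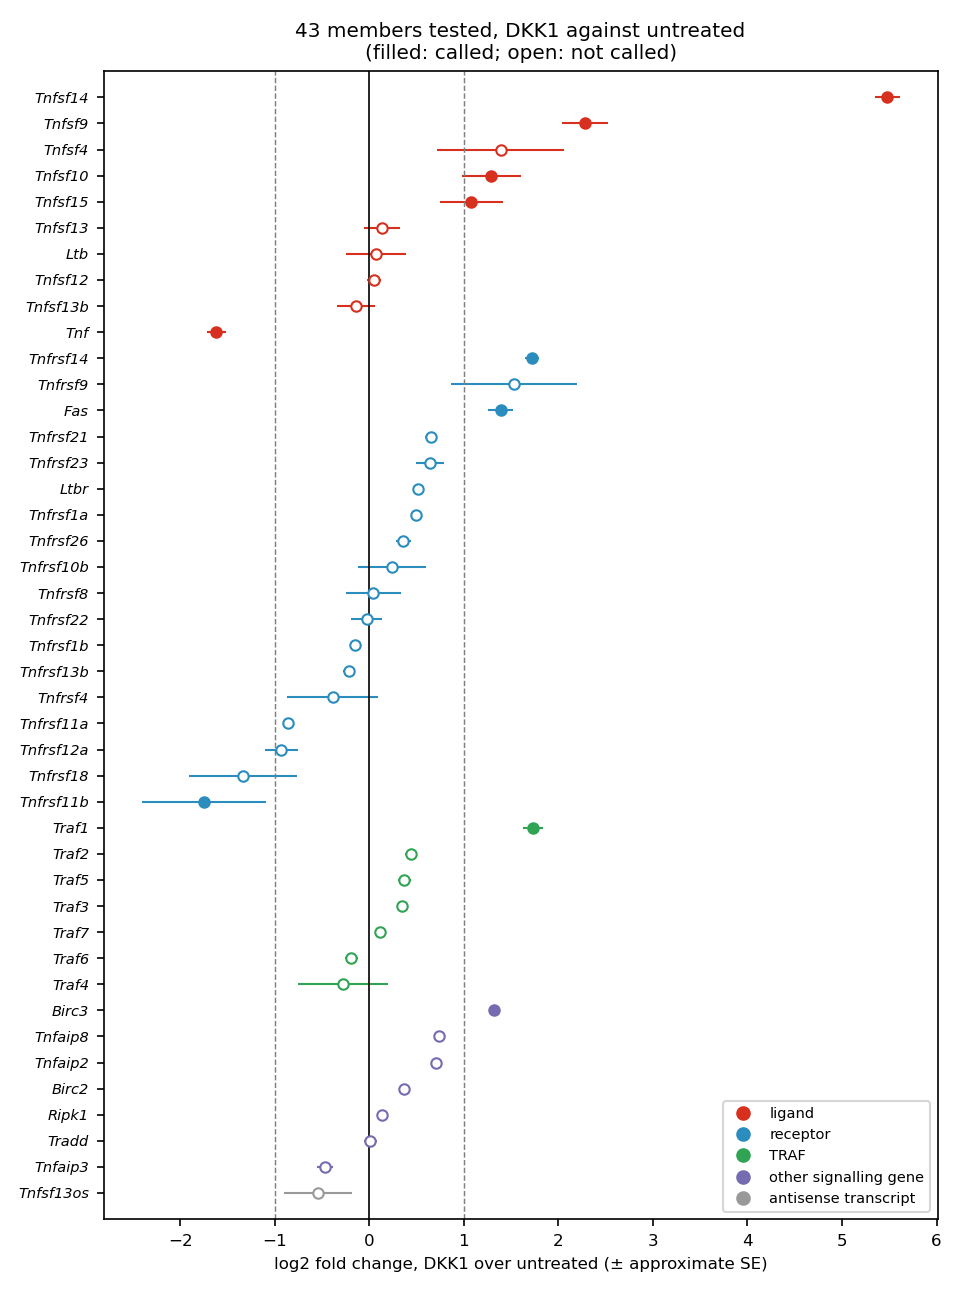
Log2 fold change of DKK1 over untreated for the 43 tested members, with approximate SE, grouped by role and colored by it; filled points were called. Tnfsf14 (5.48) lies farthest to the right, Tnf (-1.62) and Tnfrsf11b (-1.75) are the filled points on the left, and the dashed lines mark log2 fold changes of -1 and 1.

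Several of these genes lie close together in the genome (GRCm39). Tnfsf9 (chr17:57412298-57414769) and Tnfsf14 (chr17:57496451-57501177) lie on the same stretch of chromosome 17, with Cd70 annotated between them, and both rose with DKK1. Tnf (chr17:35418357-35420983) and Ltb (chr17:35413382-35415296) are direct neighbors, and of these Tnf alone was called. Birc2 (chr9:7818227-7837120) and Birc3 (chr9:7845790-7873229) form another pair. Tnfrsf26 (chr7:143161396-143182459), Tnfrsf22 (chr7:143187219-143203408) and Tnfrsf23 (chr7:143219546-143239611) form a cluster on chromosome 7.

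Because 8 members rose together with DKK1, the bases upstream of their start sites were searched for 4 motifs on both strands. RefSeq promoter windows (GRCm38.p6, 250 bases before and 50 after the start) were available for 7 of these 8 genes and for 10 of the 14 members called in any comparison. The AP-1 motif TGANTCA was in the windows of Tnfsf14 and Fas, 2 of the 7, and in 7.81% of all 32851 windows. The interferon-stimulated response element (ISRE) core GAAANNGAAA was in that of Tnfrsf14 and in 3.44% of all windows. The NF-κB consensus and the STAT6 motif TTCNNNNGAA were in none of the 10, and in 4.51% and 6.95% of all windows. At shares this low, 10 windows can often hold no match, so its absence does not set these genes apart. No window shown held more than 1 of the 4 motifs. A match is a description of the letters and not a bound site. The 250 bases before the start of the 3 genes are shown 5′ to 3′ on the gene's strand because these are the members called with DKK1 that held a match; capitals mark the AP-1 match in Tnfsf14 and Fas and the ISRE match, on the opposite strand, in Tnfrsf14. They lie at chr17:57194182-57194431 (minus strand), chr19:34290409-34290658 (plus strand) and chr4:154928078-154928327 (minus strand) of GRCm38.p6, and the matches begin at -160, -211 and -64 relative to the start.
Tnfsf14: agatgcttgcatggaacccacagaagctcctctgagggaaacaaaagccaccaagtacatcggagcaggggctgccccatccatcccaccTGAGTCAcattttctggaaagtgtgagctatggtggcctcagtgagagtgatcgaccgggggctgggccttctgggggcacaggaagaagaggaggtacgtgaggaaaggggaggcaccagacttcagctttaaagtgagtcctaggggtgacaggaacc
Fas: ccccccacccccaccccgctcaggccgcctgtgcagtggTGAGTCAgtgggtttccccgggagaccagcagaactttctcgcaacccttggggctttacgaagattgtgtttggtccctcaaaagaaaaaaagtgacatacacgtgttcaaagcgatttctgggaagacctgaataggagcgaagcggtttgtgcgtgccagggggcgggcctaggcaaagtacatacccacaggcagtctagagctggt
Tnfrsf14: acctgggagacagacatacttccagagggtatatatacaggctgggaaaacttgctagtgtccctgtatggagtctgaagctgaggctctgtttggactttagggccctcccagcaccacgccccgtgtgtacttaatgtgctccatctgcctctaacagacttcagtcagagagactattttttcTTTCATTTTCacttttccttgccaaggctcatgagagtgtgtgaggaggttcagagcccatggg

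IL-13 alone changed 3 of the 43 tested members relative to untreated cells, where 8.13% of all genes tested were called. Tnfsf4 and Traf5 were called higher and Tnf was called lower, where 4.64% and 3.49% of all genes tested were called higher and lower. The members' shares were close to these backgrounds. The median log2 fold change was 0.04 over the members and -0.02 over all genes tested. At the adjusted p alone, 11 members were higher and 11 lower, where 23.9% and 23.2% of all genes were.

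Tnf was at 10.3, 9.69 and 9.68 CPM with IL-13, against 21.6, 20.8 and 20.4 CPM in untreated cells. All IL-13 libraries lay below all untreated ones, and the log2 fold change was -1.08 ± 0.09 (edgeR, adjusted p = 2.82e-09). Tnfsf4, whose product engages OX40 on T cells, was at 0.477, 0.659 and 0.709 CPM with IL-13, against 0.134, 0.0891 and 0.0536 CPM in untreated cells. These levels rested on 16, 24 and 26 counts with IL-13, against 5, 3 and 2 counts in untreated cells. The groups did not overlap and the log2 fold change was 2.69 ± 0.61 (edgeR, adjusted p = 9.74e-04), the largest of any member with IL-13. Over all genes, 76.0% of counts between 1 and 20 were even, against 51.6% of counts of 1000 or more, and whether low counts are independent reads was not tested. Traf5, an adaptor of OX40, CD27 and other T cell co-stimulatory receptors, was at 28.7, 29.5 and 28.7 CPM with IL-13, against 11.1, 12.2 and 12.4 CPM in untreated cells. This gave a log2 fold change of 1.28 ± 0.07, or 2.43-fold (edgeR, adjusted p = 2.21e-12).

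No receptor gene passed both thresholds with IL-13 in edgeR's test, although several of the abundant ones passed the adjusted p. Tnfrsf1b was at 919, 873 and 916 CPM with IL-13, against 723, 704 and 708 CPM in untreated cells. Tnfrsf1a was at 197, 182 and 187 CPM with IL-13, against 219, 218 and 229 CPM in untreated cells. The TNFR2 gene was thus higher in all 3 IL-13 libraries (log2 fold change 0.34 ± 0.04) and the TNFR1 gene lower in all 3 (-0.23 ± 0.04). Tnfrsf14 had a log2 fold change of -0.41 ± 0.07 with IL-13, and Tnfrsf22, a mouse decoy receptor for TRAIL, had 0.66 ± 0.15. Tnfrsf8, which encodes CD30, had a log2 fold change of 0.88 ± 0.27 with IL-13 and reached 1.00 and a call without IL-13 replicate 3. Tnfrsf10b was at 1.10 ± 0.155 CPM with IL-13 and 0.668 ± 0.256 CPM in untreated cells (SD, n = 3 each), and its log2 fold change of 0.72 became a called 1.08 without untreated replicate 1.

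In the combined treatment, 4 members were called higher than in untreated cells (Tnfsf14, Tnfsf9, Tnfrsf26 and Traf1), where 5.24% of all genes were called higher. In edgeR's test 0 members were called lower, where 6.59% of all genes were. DESeq2 called 4 members higher and 0 lower, and over all genes it called 860 higher and 1117 lower. In edgeR's test, 31 of the 43 members had an unadjusted p under 0.05 in either direction. Over all genes, 8901 of the 16306 tested did. At the adjusted p alone, 19 members were higher and 10 lower, where 26.0% and 23.5% of all genes tested were. The median log2 fold change was 0.17 over the members and -0.01 over all genes tested.

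Tnfrsf26, a TNF receptor gene of the mouse chromosome 7 cluster, was the member called in this comparison and in neither single treatment. It was at 29.3, 31.5 and 29.3 CPM with IL-13+DKK1, 15.7, 15.2 and 15.2 CPM with DKK1, 17.0, 14.7 and 15.9 CPM with IL-13 and 12.1, 11.9 and 12.2 CPM in untreated cells. All co-treated libraries were above all others, with a log2 fold change of 1.32 ± 0.07 against untreated cells (edgeR, adjusted p = 1.22e-12). The single treatments gave log2 fold changes of 0.36 ± 0.08 for DKK1 and 0.40 ± 0.08 for IL-13. The effect of DKK1 with IL-13 minus that without IL-13 was 0.56 ± 0.10 (edgeR, adjusted p = 2.85e-04), which was under the fold threshold. Its neighbors had log2 fold changes against untreated cells of 0.54 ± 0.15 (Tnfrsf22) and 0.80 ± 0.15 (Tnfrsf23) in the combined treatment.

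Tnfaip8, which encodes a regulator of cell death and lipid signaling, was just under the fold threshold in the combined treatment. It was at 238, 248.8 and 235 CPM with IL-13+DKK1, 202, 205 and 205 CPM with DKK1, 168, 166 and 177 CPM with IL-13 and 114, 133 and 118 CPM in untreated cells. The 4 groups did not overlap one another, and the log2 fold change of the combined treatment over untreated cells was 0.98 ± 0.05 (edgeR, adjusted p = 7.85e-14). It reached 1.00 without IL-13+DKK1 replicate 3 and 1.05 without untreated replicate 2, and was then called.

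**Figure D3:**
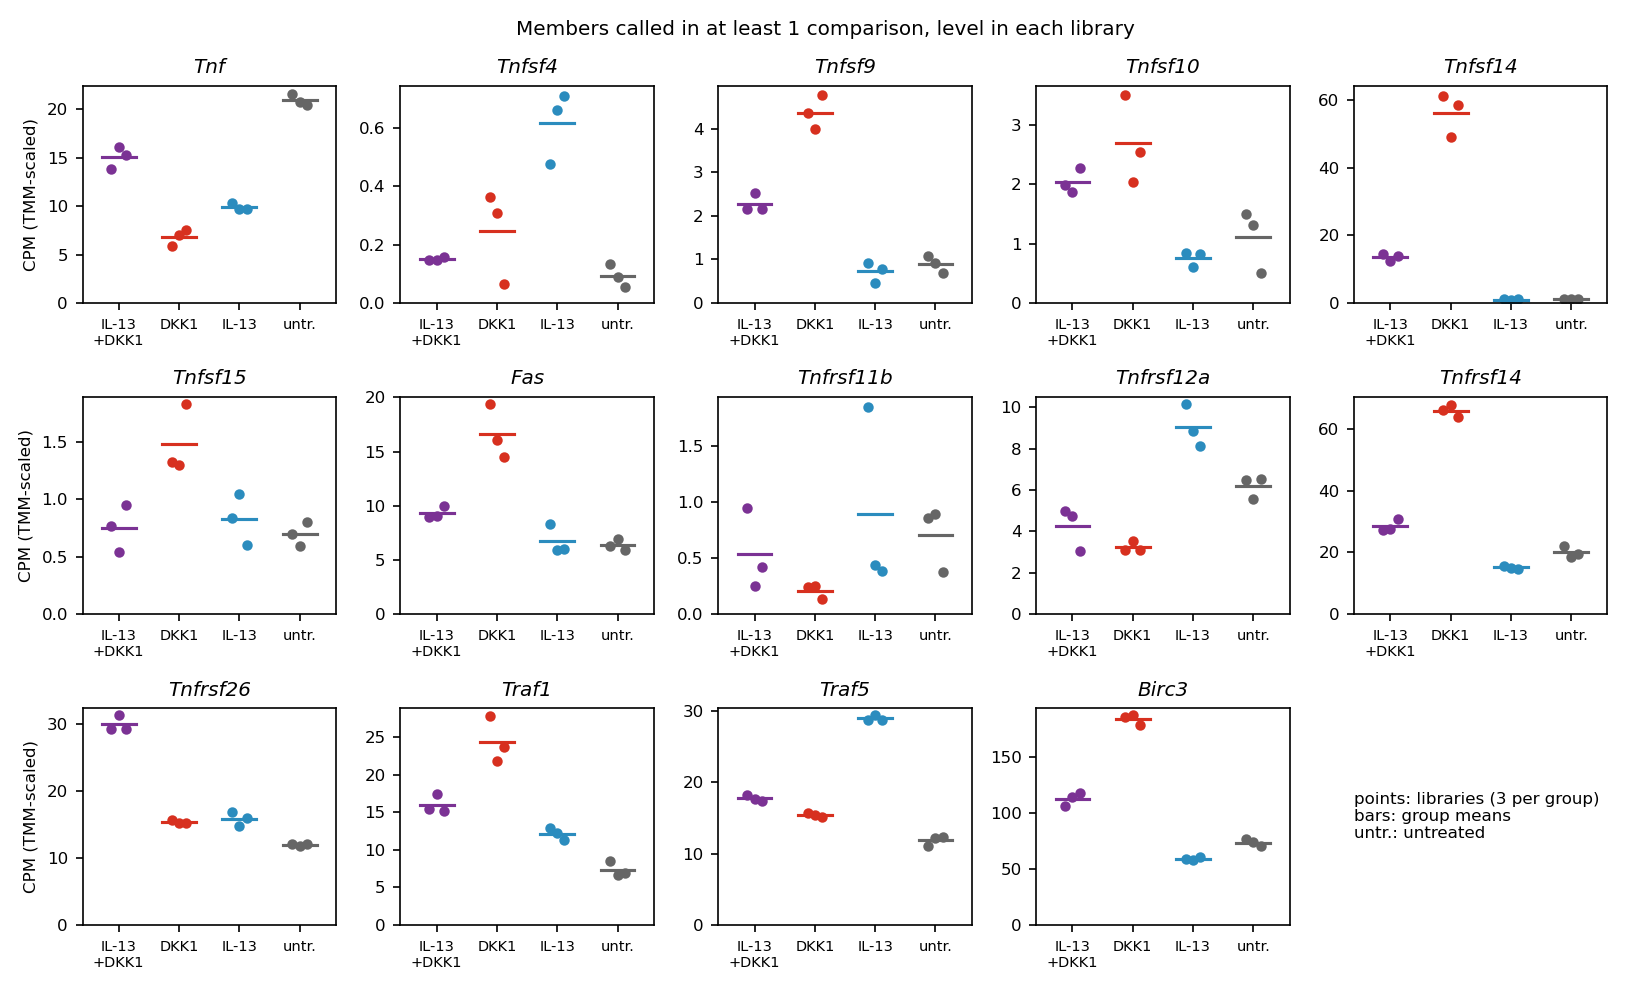
TMM-scaled CPM of the 14 members called in at least 1 comparison, with 1 point per library (3 per group) and a bar at each group mean; each panel has its own linear axis from 0. Tnfsf14, Tnfrsf14, Fas and Birc3 peak with DKK1 alone, Traf5 and Tnfsf4 peak with IL-13 alone, Tnfrsf26 peaks in the combined treatment, and Tnf is highest in untreated cells.

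Adding DKK1 to IL-13 was then compared with IL-13 alone. Tnfsf14, Tnfsf9 and Tnfsf10 were called higher in co-treated cells, where 4.66% of all genes were called higher. Tnfsf4 and Tnfrsf12a were called lower, where 6.10% of all genes were. At the adjusted p alone, 17 members were higher and 8 lower, where 22.5% and 21.9% of all genes were. Tnfsf14 was at 14.4, 12.5 and 13.97 CPM with IL-13+DKK1, against 1.13, 0.769 and 1.20 CPM with IL-13. In these cells it was 13.1-fold higher, or 3.72 ± 0.14 on the log2 scale (edgeR, adjusted p = 2.26e-15). Tnfsf9 was at 2.16, 2.52 and 2.16 CPM with IL-13+DKK1, against 0.924, 0.467 and 0.791 CPM with IL-13, a log2 fold change of 1.65 ± 0.25 (edgeR, adjusted p = 9.89e-06). Tnfsf10 was at 1.98, 1.88 and 2.27 CPM with IL-13+DKK1, against 0.835, 0.604 and 0.818 CPM with IL-13, a log2 fold change of 1.44 ± 0.32 (edgeR, adjusted p = 9.10e-04). For each of the 3 ligands, every co-treated library lay above every IL-13 library. All 3 were also called with DKK1 alone.

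Tnfsf4 was at 0.148, 0.148 and 0.158 CPM with IL-13+DKK1 (5, 6 and 6 counts), against 0.477, 0.659 and 0.709 CPM with IL-13 (16, 24 and 26 counts). Its fitted log2 fold change was -2.00 ± 0.57 (edgeR, adjusted p = 0.00635), and the groups did not overlap. Tnfrsf12a encodes Fn14, the TWEAK receptor, and was at 4.96, 4.74 and 3.03 CPM with IL-13+DKK1, 3.11, 3.52 and 3.10 CPM with DKK1, 10.1, 8.84 and 8.13 CPM with IL-13 and 6.47, 5.58 and 6.54 CPM in untreated cells. Both groups given DKK1 lay below both groups without it. The log2 fold change was -1.09 ± 0.16 for IL-13+DKK1 over IL-13 (edgeR, adjusted p = 4.65e-06) and -0.93 ± 0.17 for DKK1 over untreated cells, the second not called. The first call was lost without IL-13 replicate 1 (-1.0) and without IL-13+DKK1 replicate 3 (-0.91). The second became a call without untreated replicate 2 (-1.0) and with scaling by library size alone (-1.05). The exons of Tnfrsf12a lie wholly within those of Hcfc1r1 on the other strand in the annotation used (100% of its exon bases). Hcfc1r1 was at 34.9 ± 1.14 CPM with IL-13+DKK1 and 33.5 ± 0.184 CPM with IL-13 (SD, n = 3 each). The strand setting of the counting step is not given in the sources used here. The reads of these 2 genes may therefore not be fully separated.

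The TNF receptors themselves shifted against each other. The count of Tnfrsf1b divided by that of Tnfrsf1a, not corrected for length, was 1.90, 1.86 and 1.80 with IL-13+DKK1, 2.17, 2.06 and 1.94 with DKK1, 4.66, 4.80 and 4.89 with IL-13 and 3.29, 3.24 and 3.09 in untreated cells. The 4 groups did not overlap, and the ratio was lowest in co-treated cells and highest with IL-13 alone. Tnfrsf1b was at 519, 512 and 516 CPM with IL-13+DKK1, against 919, 873 and 916 CPM with IL-13, and the log2 fold change was -0.81 ± 0.04 (edgeR, adjusted p = 3.71e-14). Tnfrsf1a was at 274, 275 and 286 CPM with IL-13+DKK1, against 197, 182 and 187 CPM with IL-13, and the log2 fold change was 0.56 ± 0.04 (edgeR, adjusted p = 4.47e-11). Neither passed the fold threshold, and for both genes the 2 groups were fully separated. The effect of DKK1 with IL-13 minus that without was -0.66 ± 0.05 for Tnfrsf1b (edgeR, adjusted p = 2.14e-09) and 0.07 ± 0.05 for Tnfrsf1a (edgeR, adjusted p = 0.394).

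Adding IL-13 to DKK1 was compared with DKK1 alone. Tnfsf14 and Tnfrsf14 were called lower in co-treated cells and Tnf higher, where 2.29% of all genes were called lower and 3.22% higher. At the adjusted p alone, 7 members were higher and 15 lower, where 20.2% and 19.1% of all genes were. Tnfsf14 was at 14.4, 12.5 and 13.97 CPM with IL-13+DKK1, against 61.2, 49.0 and 58.6 CPM with DKK1. Co-treated cells thus had a 4.14-fold lower level, or -2.05 ± 0.09 on the log2 scale (edgeR, adjusted p = 1.68e-13). Tnfrsf14 was at 27.3, 27.5 and 30.8 CPM with IL-13+DKK1, against 66.3, 67.8 and 64.0 CPM with DKK1, which fitted as -1.21 ± 0.07 on the log2 scale (edgeR, adjusted p = 3.30e-12). The transcripts of LIGHT and of its receptor HVEM thus both had lower levels in the co-treated libraries than in any DKK1 library, and both remained above untreated cells (log2 fold changes of 3.44 ± 0.14 and 0.51 ± 0.07, the second under the fold threshold). Tnf was at 13.8, 16.1 and 15.3 CPM with IL-13+DKK1, against 5.92, 6.98 and 7.51 CPM with DKK1. This was a log2 fold change of 1.15 ± 0.10 (edgeR, adjusted p = 3.90e-09). Fas, at 8.92, 9.04 and 9.94 CPM with IL-13+DKK1 and 19.4, 16.1 and 14.5 CPM with DKK1, changed by -0.84 ± 0.13 on the log2 scale, too little for a call. Birc3, at 106, 114 and 118 CPM with IL-13+DKK1 and 186, 188 and 179 CPM with DKK1, had -0.71 ± 0.04.

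Whether the effect of DKK1 depended on IL-13 was tested as the difference between its log2 fold change with IL-13 (IL-13+DKK1 over IL-13) and without it (DKK1 over untreated). Of the 43 tested members, 1 had a called positive difference (Tnf) and 4 a called negative one (Tnfsf14, Tnfsf4, Traf1 and Traf5). Over all genes, 2.12% had a called positive and 2.50% a called negative difference. The median difference was -0.14 over the members and 0.02 over all genes tested.

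For Tnf the sign of the DKK1 effect differed between the 2 settings. DKK1 gave a log2 fold change of 0.61 ± 0.09 in the presence of IL-13, against -1.62 ± 0.10 in its absence, a difference of 2.23 ± 0.14 (edgeR, adjusted p = 5.10e-11). Each agent alone lowered Tnf, and the co-treated level of 15.04 ± 1.14 CPM was above both single treatments (6.80 ± 0.807 with DKK1 and 9.90 ± 0.362 with IL-13) and below the untreated level of 20.9 ± 0.628 CPM (SD, n = 3 each). No library of any of the 4 groups overlapped another group.

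For Tnfsf14 DKK1 raised the level in both settings, by less in the presence of IL-13 (3.72) than in its absence (5.48), a difference of -1.77 ± 0.23 (edgeR, adjusted p = 3.44e-06). For Traf1 the DKK1 effect was 0.40 ± 0.11 with IL-13 and 1.73 ± 0.11 without it, a difference of -1.33 ± 0.15 (edgeR, adjusted p = 6.42e-07). Traf1 was at 15.5, 17.4 and 15.2 CPM with IL-13+DKK1, 27.8, 21.8 and 23.6 CPM with DKK1, 12.9, 12.3 and 11.4 CPM with IL-13 and 8.51, 6.65 and 6.94 CPM in untreated cells, and the 4 groups did not overlap. For Traf5 the DKK1 effect was -0.71 ± 0.07 with IL-13 and 0.37 ± 0.07 without it, neither past the fold threshold, and their difference was -1.08 ± 0.10 (edgeR, adjusted p = 3.56e-08). Traf5 was at 18.3, 17.6 and 17.4 CPM with IL-13+DKK1, against 28.7, 29.5 and 28.7 CPM with IL-13. For Tnfsf4 the difference was -3.39 ± 0.88 (edgeR, adjusted p = 0.00584), from 2 to 26 counts per library. DESeq2 returned no adjusted p for it.

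Other members called with DKK1 alone gave differences that were not called. Tnfrsf14 had -0.80 ± 0.10 (edgeR, adjusted p = 2.01e-06), Fas -0.92 ± 0.19 and Birc3 -0.39 ± 0.06, all under the fold threshold. The Fas difference was called without DKK1 replicate 3 (-1.04), without IL-13 replicate 2 (-1.01) and without IL-13+DKK1 replicate 3 (-1.0). Tnfsf9 had -0.63 ± 0.35 (edgeR, adjusted p = 0.208) and Tnfsf10 0.15 ± 0.45 (edgeR, adjusted p = 0.855), which does not show that DKK1 acted alike in both settings. Tnfsf15 had a difference of -1.22 ± 0.47 that was past the fold threshold but not the adjusted p (0.0639, edgeR), and it was called without IL-13 replicate 3 (-1.4) and without IL-13+DKK1 replicate 3 (-1.45). Tnfrsf11b had 1.02 ± 0.88 (edgeR, adjusted p = 0.452).

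**Figure D4:**
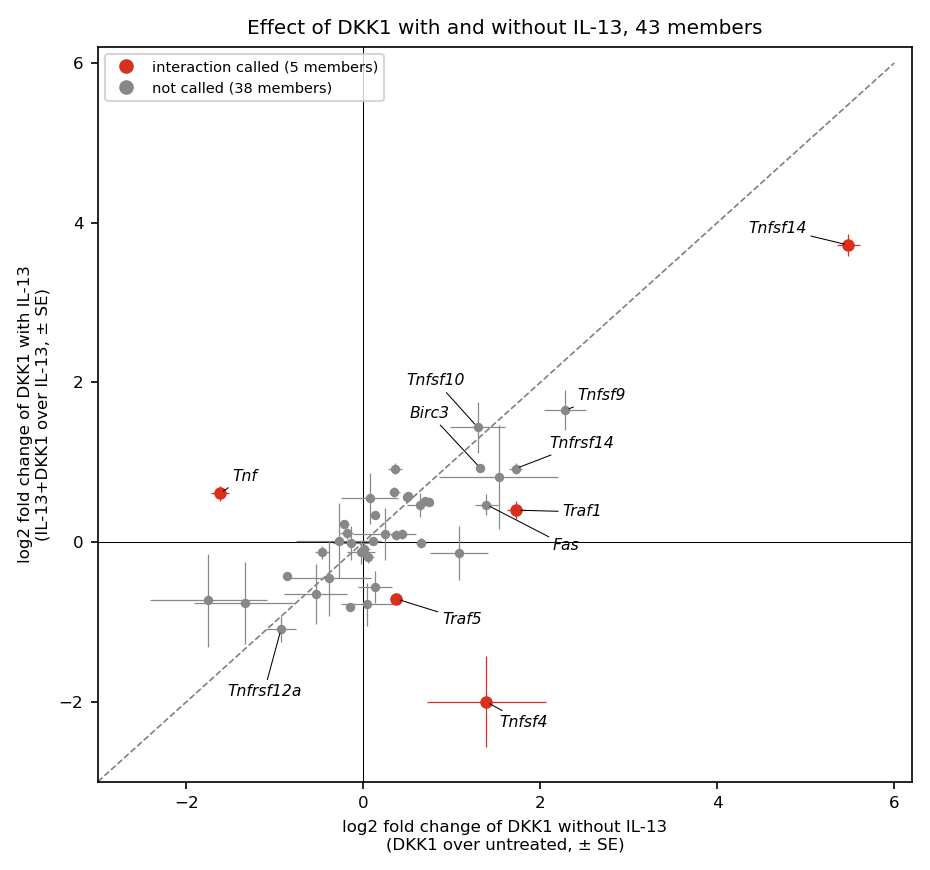
Log2 fold change of DKK1 in the presence of IL-13 (IL-13+DKK1 over IL-13, vertical axis) against that in its absence (DKK1 over untreated, horizontal axis) for the 43 tested members, with approximate SE; the dashed line marks equal effects. The 5 members with a called difference are in red; Tnf lies in the upper left quadrant and Tnfsf14, Traf1, Traf5 and Tnfsf4 lie below the line.

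The remaining 29 tested members were called in none of the 6 comparisons. Their log2 fold changes lay between -1.34 (Tnfrsf18) and 1.53 (Tnfrsf9) for DKK1 over untreated cells, with 11 higher and 5 lower at the adjusted p alone (22.6% and 23.0% over all genes tested), and between -0.54 and 0.88 for IL-13 over untreated cells. Tnfrsf9, the 4-1BB receptor gene, was at 0.363, 0.556 and 0.783 CPM with DKK1, against 0.0535, 0.149 and 0.375 CPM in untreated cells. The 2 groups overlapped slightly, and the log2 fold change of 1.53 ± 0.67 had an adjusted p of 0.0688 (edgeR). It was called without untreated replicate 3 (2.47) and in a fit of these 2 groups alone (1.54). Tnfrsf18, which encodes GITR, was at 0.0906, 0.154 and 0.196 CPM with DKK1, against 0.508, 0.297 and 0.322 CPM in untreated cells. These did not overlap, but the adjusted p was 0.0603 (edgeR). Tnfrsf21, which encodes death receptor 6, was at 65.4, 68.8 and 67.6 CPM with DKK1, against 41.9, 44.5 and 41.8 CPM in untreated cells, a log2 fold change of 0.65 ± 0.06 that passed the adjusted p alone (7.21e-09, edgeR).

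Tnfsf12, Tnfsf13 and the readthrough gene Tnfsfm13 overlap on 1 strand, and Tnfsf13os overlaps Tnfsf13 on the other, so the values of these genes depend on how shared reads were assigned. Tnfsf13 was at 1.99 ± 0.357 CPM with IL-13+DKK1, 3.78 ± 0.697 CPM with DKK1, 2.95 ± 0.389 CPM with IL-13 and 3.46 ± 0.514 CPM in untreated cells (SD, n = 3 each). Its log2 fold change for IL-13+DKK1 over DKK1 was -0.92 ± 0.20, and it was called without DKK1 replicate 1 (-1.06) or IL-13+DKK1 replicate 2 (-1.07).

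A list of 59 other genes of the pathway that the name rule does not cover was examined in the same fit. It holds superfamily genes with other names, adaptors, kinases, ubiquitin editors, caspases and shedding proteases, and 50 of the 59 were tested. Lta, Cd40lg, Cd70, Fasl, Ngfr, Edar and Tnfaip6 were not in the count table, and Eda and Eda2r did not pass the filter. With DKK1 alone, 4 were called higher (Relt, Ripk3, Mlkl and Tank) and 1 lower (Traip), against the same backgrounds of 5.18% and 6.46%. Relt, a TNF receptor superfamily gene, was at 15.4, 15.8 and 15.8 CPM with IL-13+DKK1, 38.3, 42.3 and 38.7 CPM with DKK1, 4.77, 3.10 and 4.39 CPM with IL-13 and 4.01, 2.999 and 3.48 CPM in untreated cells. The DKK1 group was highest and the co-treated group second, both clear of the other 2 groups. Its log2 fold change was 3.5 ± 0.12 for DKK1 over untreated cells, and the effect of DKK1 with IL-13 minus that without was -1.56 ± 0.17 (edgeR, adjusted p = 4.16e-07).

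Ripk3 and Mlkl encode the kinase and the effector of necroptosis. Ripk3 was at 62.9, 60.2 and 66.8 CPM with IL-13+DKK1, 52.0, 47.8 and 55.9 CPM with DKK1, 42.2, 44.3 and 44.8 CPM with IL-13 and 20.7, 21.0 and 22.9 CPM in untreated cells. The untreated libraries were the lowest, and the log2 fold changes over untreated cells were 1.56 ± 0.06 for IL-13+DKK1, 1.27 ± 0.06 for DKK1 and 1.02 ± 0.06 for IL-13, all called. Mlkl had log2 fold changes over untreated cells of 1.28 ± 0.06 for IL-13+DKK1 and 1.15 ± 0.06 for DKK1. Tank, whose product binds TRAFs and the kinase TBK1, had 1.05 ± 0.06 and 1.02 ± 0.06 in these comparisons. Ripk1, a member and the kinase upstream of RIPK3, had 0.09 ± 0.04 and 0.13 ± 0.04 and was not called.

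With IL-13 alone, Ripk3, Tnfaip8l3 and Traip of this list were called higher, 3 of the 50 tested, where 4.64% of all genes were. Traip, which encodes a TRAF-interacting ubiquitin ligase, had a log2 fold change over untreated cells of 1.08 ± 0.14 with IL-13 and was called in the opposite direction with DKK1. In the combined treatment, 5 of the 50 were called higher than in untreated cells (Relt, Ripk3, Mlkl, Tank and Tnfaip8l3) and 2 lower (Traf3ip3 and Rhbdf1), where 5.24% and 6.59% of all genes were. The lower count was no larger a share than over all genes.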

How the data were processed

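Bulk RNA seq was analyzed from 12 libraries of mouse BMDMs, 3 for each of 4 groups. The deposited values are raw counts per gene, which the authors made with a stranded total RNA kit, FastQC 0.11.9, alignment with STAR 2.7.6a to GRCm39 and featureCounts, with replicates kept separate. For featureCounts, neither version, annotation nor strand handling is stated, hence not given in the sources used here. The table had been filtered before deposit: the lowest of the genes' highest counts was 11. The authors used DESeq2 1.30.0 for their own tests, which were not used here.

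Here edgeR 4.0.16 in R 4.3.3 was used on the 12 libraries together, with TMM factors (0.9451 to 1.043), filterByExpr (minimum count 10, minimum total 15, 16306 of 17723 genes tested), quasi-likelihood F tests and Benjamini-Hochberg adjustment over all genes tested. A call needed an adjusted p under 0.05 and a log2 fold change over 1 in size. The common biological coefficient of variation was 0.0612. Standard errors are approximate, from dividing each log2 fold change by the root of its F statistic. Counting intervals were not needed, since values are given per library, and their precision is limited by counting error at low counts. Replicates of a group differed by more than sampling noise (chi-square per gene 4.31 to 9.93). Gene positions and lengths come from GENCODE vM39 on GRCm39 (99.6% of the table's gene IDs matched, 45 of 45 members) and promoter sequences from RefSeq on GRCm38.p6 (33 of 43 tested members had an entry).

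The members, the list of other pathway genes and the tests were chosen with earlier results of these data known. Members called in at least 1 of the 6 comparisons are given per library, and of the other pathway list at most the 4 called genes with the smallest adjusted p in a comparison are given with values. Other genes named below the thresholds, such as the TNF receptors and Tnfaip8, were picked after their values were seen. Alternatives were library-size and RLE scaling, no filter, DESeq2 1.42.0, fits of 2 groups only, a replicate block and leaving out each library.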

Additional observations from a re-analysis of the deposited data

Results flagged for a closer look

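The response to DKK1 differed by the presence of IL-13 in 5 members, by the interaction term of edgeR's quasi-likelihood test. Given as the log2 fold change of DKK1 with IL-13 minus that without it, the differences were 2.23 for Tnf, -1.77 for Tnfsf14, -3.39 for Tnfsf4, -1.33 for Traf1 and -1.08 for Traf5. All 5 were called in each fit that left out 1 of the 12 libraries, within ranges of 2.11 to 2.28, -1.95 to -1.64, -3.85 to -3.03, -1.45 to -1.25 and -1.12 to -1.03 in the same order. Tnfsf4 rested on 117 counts in all.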

How the results depend on the processing

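Of 30 called comparisons of single members, 26 were called under each alternative run that returned an adjusted p. The other 4 were Tnfsf10, Tnfsf15 and Tnfrsf11b for DKK1 over untreated cells and Tnfrsf12a for IL-13+DKK1 over IL-13. Scaling by library size alone moved the median of all genes for DKK1 over untreated cells to -0.155, against -0.036 as reported. With it, 4 members were lower with DKK1 (Tnfrsf12a and Tnfrsf18 added), 2 were higher with IL-13+DKK1 than with DKK1 (Tnfrsf26 added) and 4 other pathway genes were lower with DKK1. A fit of 2 groups alone gave 2 other pathway genes lower with DKK1, and DESeq2 gave 0 with a positive difference in the DKK1 effect. The cause was not tested.

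Leaving out 1 library in turn, members called lower numbered 1 to 2 for DKK1 over untreated, 1 to 2 for IL-13 over untreated, 0 to 2 for IL-13+DKK1 over untreated, 1 to 2 for IL-13+DKK1 over IL-13 and 2 to 4 for IL-13+DKK1 over DKK1. Other pathway genes called lower numbered 1 to 3, 0 to 1 and 1 to 2 in the first 3 of these, 1 to 2 were higher with IL-13+DKK1 than with IL-13, and 0 to 1 had a positive difference. The member counts include Tnfsf8, which did not pass the filter with all 12 libraries. Tnfsf8 was called lower for IL-13 over untreated without untreated replicate 2. For IL-13+DKK1 over untreated, Tnfsf8 was called lower without IL-13 replicate 2 and without untreated replicate 2. Of 1008 values of the 14 members called in any comparison (the 29 others tested were left out), 9 changed sign, none of them called. Their ranges were -0.09 to 0.17 for Fas and -0.77 to 0.69 for Tnfrsf11b (IL-13 over untreated), -1.4 to 0.37 for Tnfrsf11b and -0.35 to 0.07 for Tnfsf15 (IL-13+DKK1 over IL-13), -0.1 to 0.3 for Tnfsf15 (IL-13+DKK1 over untreated), and -0.28 to 0.01 for Tnfrsf12a and -0.15 to 0.5 for Tnfsf10 (difference in the DKK1 effect).

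Any pairing of libraries by replicate number was weak: over 18 same-numbered pairs, the correlations of deviations from the group means were -0.064 to 0.082. Even so, 10 of 12 libraries correlated best with a library of their own replicate number. With the number as a replicate block, 8 members were higher and 2 lower with DKK1 over untreated cells, and no member's call changed. Counts of all genes stayed within 1.5 times of the values reported under each alternative run. Low members such as Tnfsf4, Tnfrsf11b, Tnfrsf9 and Tnfrsf18 are limited by depth.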
